A study of Saccharomyces cerevisiae with 8 samples.

Results

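Yeast genes of glucose phosphorylation were followed on ORF microarrays of mutants without the histone methyltransferase gene SET2. The members were 4 enzyme genes, HXK1 (YFR053C, chromosome VI), HXK2 (YGL253W, chromosome VII), GLK1 (YCL040W, chromosome III) and EMI2 (YDR516C, chromosome IV), and YCL042W, which lies beside GLK1 on chromosome III. These 5 reading frames were taken by ORF identifier from the 6267 ORFs of the value table. The enzymes were chosen by function, with the high values of GLK1 already known. YCL042W was chosen from its high values on the set2Δ arrays, so those values and its difference between the mutants are given as a description, with no test.

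Hexokinases and glucokinases transfer a phosphate from ATP to glucose, which traps the sugar in the cell and commits it to glycolysis, the pentose phosphate pathway or storage as trehalose and glycogen. In budding yeast, Hxk2 is the main enzyme during growth on glucose and also takes part in glucose repression in the nucleus. HXK1 and GLK1 are known as genes that are kept low on plentiful glucose and induced on other carbon sources or under stress. Hxk1 and Hxk2 are a pair of similar proteins that also phosphorylate fructose. Glk1 acts on aldohexoses such as glucose, and EMI2 encodes a protein closely similar to Glk1.

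Each array set cDNA of a mutant against cDNA of wild type in the other dye. The mutants were a strain labelled set2Δsir4Δ, by that label lacking SET2 and the silencing gene SIR4, and a strain labelled set2Δ, lacking SET2 alone. Both mutants and the wild type were grown in YPAD, a rich glucose medium with adenine, at 30 °C to log phase. There were 4 arrays for set2Δsir4Δ and 4 for set2Δ, and in each group the mutant carried Cy3 on 2 arrays and Cy5 on 2. All values are log2(mutant / wild type), so 0 means equal signal and 1 means 2-fold more in the mutant. The wild type has no array of its own, both comparisons rest on wild-type RNA, and its own spread is not in any test. No label states that the arrays came from separate cultures, so the p-values carry the spread among arrays alone, and part of it may be technical.

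The arrays held 4846 to 5577 values for set2Δsir4Δ and 4613 to 4926 for set2Δ, and the small number of arrays sets the precision. The SET2 spot stood between -1.94 and -1.48 on the set2Δsir4Δ arrays. In set2Δ only arrays 3 and 4 measured it, at -3.24 and -2.61. The SIR4 spot lay between -0.21 and 0.05 on the arrays labelled set2Δsir4Δ, which does not bear out that deletion, and had no value on the set2Δ arrays. The name set2Δsir4Δ is therefore used only as the label of those arrays. The sources used here do not say which stretch of SIR4 was spotted. BAR1, a gene of mating type a cells, stood at -5.76 ± 0.26 on the set2Δsir4Δ arrays and at -0.11 ± 0.09 on the set2Δ arrays (SD, n = 4 each). STE2, also a gene of a cells, stood at -5.47 ± 0.44 in set2Δsir4Δ and 0.06 ± 0.69 in set2Δ (SD, n = 4 each). MFA2, another, stood at -6.40 ± 0.68 in set2Δsir4Δ (SD, n = 3) and 0.22 ± 0.34 in set2Δ (SD, n = 4). The part of SIR4 in these low values was not tested.

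HXK1, GLK1 and EMI2 were higher than in wild type in both mutants, by 1.79-fold to 4.05-fold, and HXK2 lay near 0 on the 4 arrays that measured it. The 4554 ORFs with at least 3 values in each group entered a limma model of group means plus dye orientation. An ORF was called at a Benjamini-Hochberg adjusted p under 0.05 over all of them. Of the 5 members, 4 could be tested and HXK2 could not. All 3 tested enzymes were called higher in both comparisons. The background was wide, with 25.2% of all ORFs called in set2Δsir4Δ (11.0% higher and 14.1% lower) and 24.8% in set2Δ (11.8% higher and 13.0% lower). In bulk RNA, more of a transcript per cell and more cells that hold it cannot be told apart.

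HXK1, the hexokinase gene known to be low on glucose, stood at 1.16, 1.20, 0.57 and 1.39 on set2Δsir4Δ arrays 1 to 4. On set2Δ arrays 1 to 4 it stood at 1.08, 1.56, 1.37 and 1.23. All 8 values were above 0.5, the lowest was set2Δsir4Δ array 3, and the groups overlapped. The fitted ratio was 1.08 ± 0.12 in set2Δsir4Δ (SE, n = 4, 2.11-fold, limma adjusted p = 0.000184). It was 1.31 ± 0.12 in set2Δ (SE, n = 4, 2.48-fold, limma adjusted p = 0.000233). HXK1 had the steadiest values of the members in set2Δ, with an SD of 0.20 over its 4 arrays.

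HXK2, the gene of the main hexokinase on glucose, stood at -0.34, 0.02, -0.07 and -0.02 on set2Δsir4Δ arrays 1 to 4. Of these, 3 values were within 0.1 of 0 and array 1 was lower. With the set2Δsir4Δ arrays fitted alone, HXK2 was at -0.10 ± 0.07 (SE, n = 4, limma adjusted p = 0.27), with a 95% interval from -0.26 to 0.06. That interval leaves out a rise or fall of the size seen in HXK1, which was 1.08 ± 0.10 in the same fit (SE, n = 4, limma adjusted p = 8.1e-06). Of the 4382 ORFs with 4 values on these arrays, 3022 had a mean farther from 0 than HXK2.

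On the set2Δ arrays HXK2 had no value, so nothing can be said of it there. It was among 547 ORFs with no value on any set2Δ array and a value on all 4 set2Δsir4Δ arrays. In the order of ORF identifiers it lay in a run of 47 rows without set2Δ values, from YGL234W to YGR016W, of which 42 had a value in set2Δsir4Δ. The gap was thus shared by a whole stretch of ORFs, and its cause was not tested.

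Within the same set2Δsir4Δ arrays, HXK1 exceeded HXK2 by 1.50, 1.18, 0.64 and 1.41 on arrays 1 to 4. The mean difference was 1.18 ± 0.39 (SD, n = 4), above 0 on 4 of 4 arrays. The exact two-sided sign-flip permutation test gave p = 0.125, the smallest that 4 arrays allow. The response of this pair of related genes was therefore unequal on every array. Whether the spots of these similar genes share signal was not tested.

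GLK1, the glucokinase gene, had the highest fitted ratio of the enzymes in both mutants. It stood at 1.40, 1.92, 1.16 and 1.51 on set2Δsir4Δ arrays 1 to 4, and at 2.13, 2.98, 1.30 and 1.67 on set2Δ arrays 1 to 4. Every value was above 1, so GLK1 was more than 2-fold higher on 8 of 8 arrays, and the groups overlapped. The fitted ratio was 1.50 ± 0.20 in set2Δsir4Δ (SE, n = 4, 2.82-fold, limma adjusted p = 0.000425). In set2Δ it was 2.02 ± 0.20 (SE, n = 4, 4.05-fold, limma adjusted p = 0.000233). The SE pools both groups, while the SD over the 4 arrays was 0.32 in set2Δsir4Δ and 0.73 in set2Δ.

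EMI2, the relative of GLK1, changed less. It stood at 0.82, 1.30, 0.51 and 1.17 on set2Δsir4Δ arrays 1 to 4, and at 0.48, 0.49, 1.51 and 0.89 on set2Δ arrays 1 to 4. No array was below 0.4, and the groups overlapped over most of their range. The fitted ratio was 0.95 ± 0.16 in set2Δsir4Δ (SE, n = 4, 1.93-fold, limma adjusted p = 0.00201) and 0.84 ± 0.16 in set2Δ (SE, n = 4, 1.79-fold, limma adjusted p = 0.00532). GLK1 exceeded EMI2 by 0.34 to 0.64 on 4 of 4 set2Δsir4Δ arrays, with a mean of 0.54 ± 0.14 (SD, n = 4). In set2Δ the difference was positive on 3 of 4 arrays, with a mean of 1.18 ± 1.16 (SD, n = 4). The exact two-sided sign-flip permutation p was 0.125 for set2Δsir4Δ, the smallest possible, and 0.25 for set2Δ, where array 3 ran the other way.

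**Figure D1:**
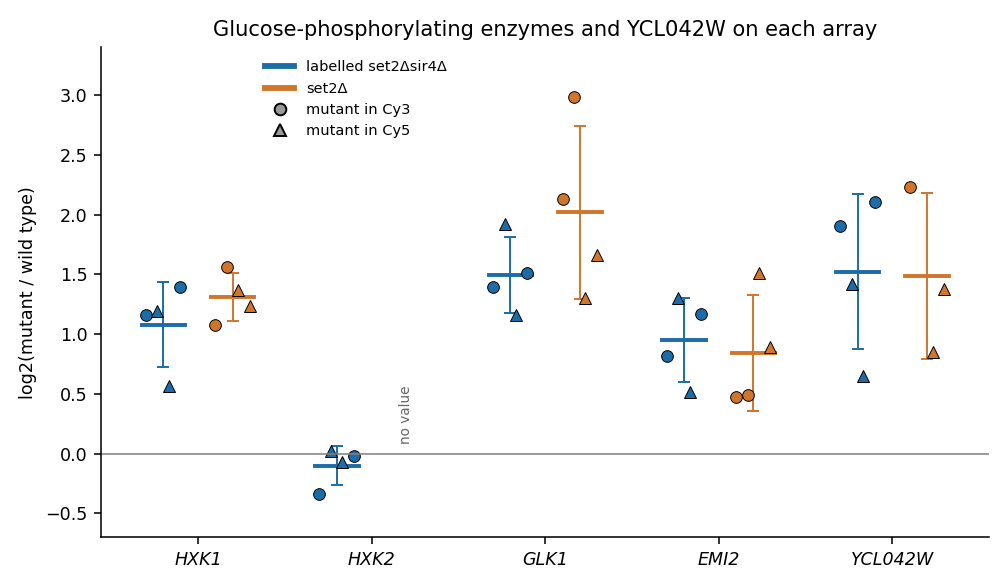
Log2(mutant / wild type) of the 5 members on each array, with set2Δsir4Δ in blue left of set2Δ in orange. Points are arrays (circles for the mutant in Cy3, triangles for Cy5), and bars are the plain mean ± SD. HXK1, GLK1, EMI2 and YCL042W lie above 0 on every array that measured them, HXK2 lies near 0, and HXK2 has no set2Δ value.

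YCL042W is an uncharacterised reading frame. In the R64 assembly its end overlaps the beginning of GLK1, and the W in both identifiers places them on the same strand. It stood at 1.91, 1.42, 0.65 and 2.11 on set2Δsir4Δ arrays 1 to 4, all above 0. The fitted ratio was 1.52 ± 0.14 (SE, n = 4, 2.87-fold, limma adjusted p = 5.66e-05). On set2Δ arrays 1, 3 and 4, which chose it, it stood at 2.23, 0.85 and 1.38, and array 2 had no value. The fitted set2Δ ratio, in which the dye term stands in for the missing array's orientation, was 1.66 ± 0.16 (SE, n = 3), against a plain mean of 1.49.

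YCL042W and GLK1 had nearly the same mean ratio on the set2Δsir4Δ arrays. YCL042W minus GLK1 was 0.51, -0.50, -0.51 and 0.60 on arrays 1 to 4, with a mean of 0.03 ± 0.61 (SD, n = 4, exact two-sided sign-flip permutation p = 0.75). It was positive on both arrays with the mutant in Cy3 and negative on both with the mutant in Cy5. In set2Δ the same difference was 0.10 with the mutant in Cy3, and -0.45 and -0.29 with the mutant in Cy5. Since the frames overlap, signal of a GLK1 transcript on the YCL042W spot cannot be told apart from a transcript of YCL042W itself. YCL041C, which the numbering places between them and on the other strand, stood at 0.22, 0.46, -0.08 and 0.40 on the set2Δsir4Δ arrays, well under both, and had no value in set2Δ.

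The 95% interval of the difference between the mutants included 0 for each tested enzyme. Of the 3 tested enzymes, 0 were called in set2Δsir4Δ minus set2Δ, against 2.70% of all ORFs (0.988% higher and 1.71% lower). The lowest unadjusted limma p of the 3 was 0.0885, for GLK1. HXK1 differed by -0.23 ± 0.18 (SE, limma adjusted p = 0.578, 95% interval -0.62 to 0.16), and by -0.068 without set2Δsir4Δ array 3. GLK1 differed by -0.52 ± 0.28 (SE, limma adjusted p = 0.42, 95% interval -1.14 to 0.09), and by -0.24 without set2Δ array 2. EMI2 differed by 0.11 ± 0.23 (SE, limma adjusted p = 0.858, 95% interval -0.40 to 0.62). The intervals leave room for differences down to -1.14 for GLK1, so equal responses are not shown.

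Dye orientation moved with some of these values, and the orientations are given apart. With the mutant in Cy3, GLK1 averaged 1.45 in set2Δsir4Δ and 2.56 in set2Δ. With the mutant in Cy5, it averaged 1.54 in set2Δsir4Δ and 1.48 in set2Δ (n = 2 arrays each). The higher GLK1 mean of set2Δ was thus carried by its Cy3 arrays, and in Cy5 the mutants differed by less than the spread between arrays.

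EMI2 went the other way in set2Δ. It averaged 0.995 in set2Δsir4Δ and 0.48 in set2Δ with the mutant in Cy3, and 0.91 in set2Δsir4Δ and 1.20 in set2Δ with the mutant in Cy5. HXK1 averaged 1.28 in set2Δsir4Δ and 1.32 in set2Δ with the mutant in Cy3, and 0.88 and 1.30 with the mutant in Cy5. All 3 enzymes stayed above 0 in each orientation of each mutant. Cy5 minus Cy3 was -1.07 for GLK1 and 0.72 for EMI2 in set2Δ, where 95% of 4408 ORFs lay within 1.16 of 0. In set2Δsir4Δ the same limit was 0.52 over 4382 ORFs, and YCL042W exceeded it at -0.98. The part of dye in these differences was not tested. Pairs of set2Δ arrays correlated at -0.09 to 0.31 in opposite orientations and at 0.68 to 0.76 in the same orientation. Pairs of set2Δsir4Δ arrays correlated at 0.69 to 0.80 and at 0.86 to 0.90. The set2Δ arrays thus agreed less across orientations than the set2Δsir4Δ arrays did.

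Among all 4554 tested ORFs, the enzymes stood in the upper tail of both comparisons. Counted from the highest ratio, GLK1 was at place 16 in set2Δsir4Δ and place 5 in set2Δ. HXK1 was at place 51 in set2Δsir4Δ and place 14 in set2Δ, and EMI2 at places 65 and 55. YCL042W was at place 15 in set2Δsir4Δ. The plot of all ratios shows that a small number of ORFs lay above GLK1 in either mutant.

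**Figure D2:**
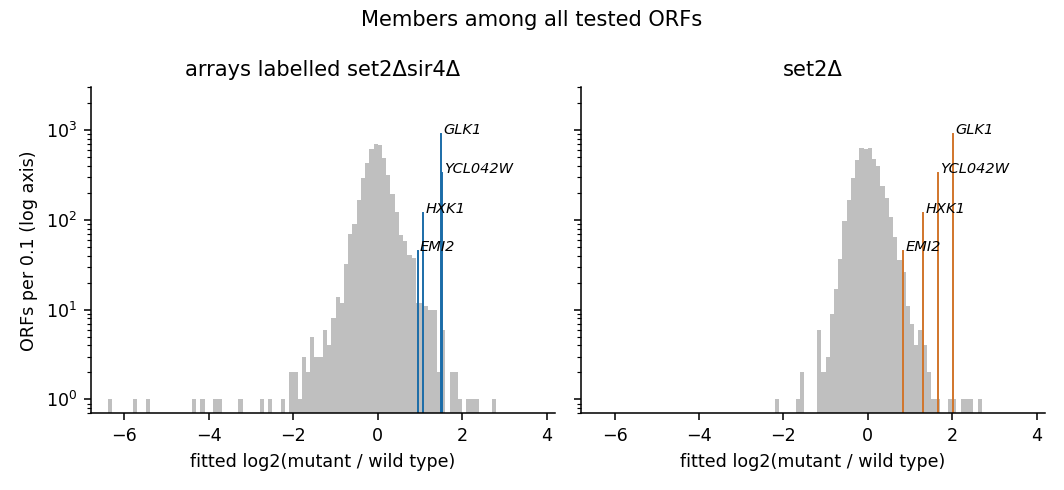
Histograms of the fitted log2(mutant / wild type) of 4554 tested ORFs, in bins of 0.1 and on a log axis of ORF counts, for set2Δsir4Δ on the left and set2Δ on the right. Vertical lines mark the 4 tested members, and line height carries no value. GLK1 stands at 1.50 in set2Δsir4Δ and 2.02 in set2Δ, and EMI2 is the lowest of the 4 in both.

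The ORFs whose values were most like those of GLK1 were sought by the root-mean-square difference of log2 ratios over all 8 arrays, among 3425 other ORFs with complete values. The nearest was YGP1, a secreted glycoprotein made on starvation, at 0.67. PNC1, a nicotinamidase, followed at 0.70. HXK1 came next at 0.73. SNZ1, of vitamin B6 synthesis, was at 0.73, and SED1, a cell wall glycoprotein, at 0.76. This measure follows the level of the ratios more than their order over arrays, and the correlation with GLK1 over the 8 arrays was -0.20 for YGP1 and 0.54 for HXK1. EMI2 came at place 47, at 1.16. Over the 7 arrays that measured YCL042W, GLK1 was the nearest of 3579 ORFs, at 0.45. These 7 include the set2Δ arrays that chose YCL042W, and all points share dye orientation and wild-type RNA.

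The genes next to the enzymes were called about as often as all ORFs. Within 5 genes on each side in the reference order, and leaving out YCL042W, 24 neighbours were tested. Of these, 4 were called higher and 1 lower in set2Δsir4Δ, and 4 higher and 2 lower in set2Δ, against 25.2% and 24.8% of all ORFs called in either direction. The higher calls stand beside 11.0% and 11.8% of all ORFs called higher.

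Beside GLK1, GID7, a subunit of the ubiquitin ligase that marks gluconeogenic enzymes for degradation, did not pass at 0.08 ± 0.19 in set2Δsir4Δ and 0.31 ± 0.22 in set2Δ. ATG22, a vacuolar amino acid exporter, stood at 0.03 ± 0.11 in set2Δsir4Δ and was called higher in set2Δ at 0.76 ± 0.11. POF1 was called higher in both (0.40 ± 0.12 in set2Δsir4Δ and 0.54 ± 0.10 in set2Δ). SRO9, an RNA-binding protein gene, was called lower in set2Δsir4Δ at -0.65 ± 0.17 and stood at -0.24 ± 0.17 in set2Δ. PDI1, protein disulfide isomerase, had no set2Δ value and averaged 0.34 in set2Δsir4Δ (n = 3). Among the genes within 5 places of GLK1, only YCL042W had a mean above 1 on the set2Δsir4Δ arrays that measured them. Its set2Δ values chose it, so its standing there is no result. Its frame is the one that overlaps GLK1.

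Around EMI2, the adjacent SLF1 (-0.11 ± 0.10 in set2Δsir4Δ and 0.10 ± 0.10 in set2Δ) and GRH1 (0.03 ± 0.08 and 0.18 ± 0.08) did not pass, nor did YDR514C (-0.16 ± 0.09 and -0.16 ± 0.09) and EUG1 (-0.01 ± 0.09 and -0.06 ± 0.09). GRX2, a glutaredoxin, was called higher in both (0.75 ± 0.12 in set2Δsir4Δ and 0.66 ± 0.12 in set2Δ), as was FPR2 (0.40 ± 0.10 and 0.50 ± 0.10). EMI1 was called higher in set2Δsir4Δ (0.38 ± 0.10), and SPS2 lower in set2Δ (-0.46 ± 0.12). Around HXK1, the proteasome gene RPN12 stood at -0.09 ± 0.08 in set2Δsir4Δ and -0.21 ± 0.08 in set2Δ. Only RMD8 was called among its 6 tested neighbours, lower in set2Δ at -0.26 ± 0.08. RET2 (0.11 ± 0.08 in set2Δsir4Δ and -0.08 ± 0.08 in set2Δ) and IRC7 (0.09 ± 0.11 and -0.15 ± 0.11) did not pass. On the other side YFR054C, without set2Δ values, averaged 0.64 in set2Δsir4Δ (n = 3). None of the 10 neighbours of HXK2 had a set2Δ value, and beside it FZF1 averaged -0.30 ± 0.09 and RTG2 0.09 ± 0.18 in set2Δsir4Δ (SD, n = 4 each). Next to these, the zinc transporter gene ZRT1 averaged 0.72 and HFM1 -0.05 in set2Δsir4Δ (n = 4 each).

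The rest of glucose metabolism was read from 9 gene lists. Glucose enters through the Hxt transporters under the sensors Snf3 and Rgt2. Of 14 tested genes of this list, 0 were higher and 4 lower in set2Δsir4Δ, and 2 were higher and 4 lower in set2Δ. The shares of all ORFs were 11.0% higher and 14.1% lower in set2Δsir4Δ, and 11.8% and 13.0% in set2Δ. The list median was -0.18 in set2Δsir4Δ and -0.12 in set2Δ, against -0.03 and -0.01 over all tested ORFs. Without set2Δsir4Δ array 1, the 4 lower calls there became 2, and without set2Δ array 4, the 2 higher calls there became 1. Without set2Δ array 3, they became 4.

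HXT7, a high-affinity transporter, was called higher in set2Δ at 1.39 ± 0.19 and stood at 0.37 ± 0.19 in set2Δsir4Δ. Its close copy HXT6, with no set2Δ value, averaged 0.88 ± 0.45 in set2Δsir4Δ (SD, n = 4), and these copies can share signal. HXT16 and HXT17, also members of a similar group, were called lower in both mutants. HXT16 was at -0.59 ± 0.11 in set2Δsir4Δ (n = 3) and -1.07 ± 0.09 in set2Δ, and HXT17 at -0.68 ± 0.09 and -0.69 ± 0.09. HXT9 was called lower in set2Δ at -0.64 ± 0.09 and stood at -0.14 ± 0.09 in set2Δsir4Δ.

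Regulators of glucose signalling include the Snf1 kinase and the Mig1 repressor. Of 20 tested, 2 were lower in set2Δsir4Δ and 0 were lower in set2Δ, against 14.1% and 13.0% of all ORFs. Others were called higher, MSN2 among them. The medians were -0.03 in set2Δsir4Δ and 0.06 in set2Δ. MSN2, an activator of stress genes, was called higher in set2Δsir4Δ at 0.35 ± 0.09 and stood at 0.19 ± 0.09 in set2Δ. STD1 (-0.37 ± 0.11, n = 3) and the casein kinase gene YCK1 (-0.39 ± 0.11) were called lower in set2Δsir4Δ. Without set2Δsir4Δ array 1, none of these 3 calls was made, and without set2Δsir4Δ array 4, neither lower call was.

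Below hexose phosphorylation, the 7 tested of 14 listed glycolysis genes had medians far under the ratios of GLK1 and HXK1. Of 7 tested genes, 0 were called in set2Δsir4Δ, and 4 were higher and 0 lower in set2Δ. Among all ORFs, 25.2% were called in set2Δsir4Δ, and 11.8% were higher and 13.0% lower in set2Δ. The medians of the tested genes were 0.08 in set2Δsir4Δ and 0.40 in set2Δ. PGI1, which isomerises glucose 6-phosphate, was at 0.00 ± 0.12 in set2Δsir4Δ and called higher in set2Δ at 0.51 ± 0.12. The phosphofructokinase subunit PFK1 was at -0.23 ± 0.09 and 0.29 ± 0.09, and the minor pyruvate kinase PYK2 at 0.13 ± 0.12 and 0.45 ± 0.12. All 4 set2Δ calls were lost without set2Δ array 4. Without set2Δ array 1 or 2, 1 gene was called higher in set2Δsir4Δ. With each mutant fitted alone, 5 of the listed genes were called higher and 2 lower in set2Δsir4Δ. That fit needed no set2Δ values, so listed genes outside the 7, such as ENO1 and CDC19, could enter it. Over all ORFs it called 1166 higher and 1374 lower in set2Δsir4Δ, against 503 and 644 with both mutants fitted together. Of the genes set aside, ENO1 averaged 0.48 ± 0.15 in set2Δsir4Δ, PGK1 0.36 ± 0.21, TDH3 0.32 ± 0.09 and CDC19 0.00 ± 0.32 (SD, n = 4 each). TDH2 averaged 0.37 ± 0.24 there (SD, n = 3), ENO2 0.15 ± 0.01 and FBA1 -0.28 ± 0.03 (SD, n = 2 each).

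Most tested genes of trehalose and glycogen, in a list that holds their synthesis and their breakdown, were high, as the enzymes were. Of 14 tested, 12 were higher and 1 lower in set2Δsir4Δ, and 9 were higher and 1 lower in set2Δ. Among all ORFs, 11.0% were higher and 14.1% lower in set2Δsir4Δ, and 11.8% and 13.0% in set2Δ. The medians of the list were 0.72 in set2Δsir4Δ and 0.67 in set2Δ. PGM2, the main phosphoglucomutase, stood at 1.73 ± 0.12 in set2Δsir4Δ (n = 3) and 1.49 ± 0.10 in set2Δ. The glycogen synthase GSY2 stood at 1.28 ± 0.12 and 1.18 ± 0.12, and the trehalose phosphatase TPS2 at 0.76 ± 0.11 and 0.84 ± 0.11. The minor phosphoglucomutase PGM1 was the lower gene in both mutants, and it was not called without set2Δsir4Δ array 2 or without set2Δ array 1, 2 or 4.

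Of 9 tested pentose phosphate genes, 2 were higher and 1 lower in set2Δsir4Δ, and 3 were higher and 1 lower in set2Δ, with medians of 0.13 and 0.11. These counts stand beside 11.0% higher and 14.1% lower of all ORFs in set2Δsir4Δ, and 11.8% and 13.0% in set2Δ. ZWF1, the first enzyme of this branch, was called higher in set2Δsir4Δ at 0.57 ± 0.09 and stood at -0.00 ± 0.09 in set2Δ. SOL4, a phosphogluconolactonase, was higher in both (1.13 ± 0.14 in set2Δsir4Δ and 0.96 ± 0.16 in set2Δ). Without set2Δ array 1 or array 4, the 3 higher calls in set2Δ became 1 and the lower call was not made.

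Some genes known, like HXK1 and GLK1, to be held low by glucose were called higher, and most did not pass. Of 14 tested, 4 were higher and 1 lower in set2Δsir4Δ, and 5 were higher and 0 lower in set2Δ. Over all ORFs, 11.0% were higher in set2Δsir4Δ and 11.8% in set2Δ. The medians of the list were 0.13 and 0.04. The lower call in set2Δsir4Δ was not made without set2Δsir4Δ array 1 or 2, nor without set2Δ array 2 or 4. The 0 lower calls in set2Δ became 2 without set2Δ array 3 and 1 without set2Δsir4Δ array 2. ALD4, a mitochondrial aldehyde dehydrogenase, was the highest at 1.58 ± 0.16 in set2Δsir4Δ and 1.49 ± 0.16 in set2Δ. The glycerol 3-phosphate dehydrogenase GUT2 (0.69 ± 0.11 and 0.67 ± 0.11), the lactate dehydrogenase CYB2 (0.63 ± 0.10 and 0.52 ± 0.10) and the respiratory activator HAP4 (0.53 ± 0.11 and 0.54 ± 0.10) were called higher in both.

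Galactose genes, which glucose also keeps low, were measured too. Of 6 tested, 0 were higher and 3 lower in set2Δsir4Δ, and 2 were higher and 1 lower in set2Δ, with medians of -0.23 and 0.17. These counts stand beside 11.0% higher and 14.1% lower of all ORFs in set2Δsir4Δ, and 11.8% and 13.0% in set2Δ. GAL3, the galactose sensor, was called lower in both (-0.75 ± 0.11 in set2Δsir4Δ, n = 3, and -0.42 ± 0.09 in set2Δ). Without set2Δsir4Δ array 4, the 3 lower calls there became 1. Without set2Δ array 4, the 2 higher calls there became 1 and the lower call was not made.

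Stress genes that the activators Msn2 and Msn4 are known to control were high beside the enzymes. Of 12 tested, 9 were higher and 1 lower in set2Δsir4Δ, and 9 were higher and 0 lower in set2Δ, with medians of 0.85 and 0.74. The shares of all ORFs were 11.0% higher and 14.1% lower in set2Δsir4Δ, and 11.8% and 13.0% in set2Δ. HSP12, a small heat shock protein, stood at 2.27 ± 0.18 in set2Δsir4Δ and 2.37 ± 0.18 in set2Δ. The catalase CTT1 stood at 1.39 ± 0.13 and 0.81 ± 0.13, and the disaggregase HSP104 at 1.55 ± 0.14 (n = 3) and 0.96 ± 0.12. The lower gene in set2Δsir4Δ was HSP26, at -1.57 ± 0.17, and a further gene was called lower there without set2Δ array 2 or 3 or set2Δsir4Δ array 2.

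Among ribosome biogenesis genes, which follow growth, calls were made in the lower direction alone, and a similar number did not pass. Of 19 tested, 0 were higher and 10 lower in set2Δsir4Δ, and 0 were higher and 9 lower in set2Δ, with a median of -0.42 in each. Over all ORFs, 14.1% were lower in set2Δsir4Δ and 13.0% in set2Δ. NSR1, a nucleolar protein, stood at -1.03 ± 0.10 in set2Δsir4Δ and -0.76 ± 0.10 in set2Δ. The part of growth state or culture density in the ratios of HXK1, GLK1 and EMI2 was not tested.

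**Figure D3:**
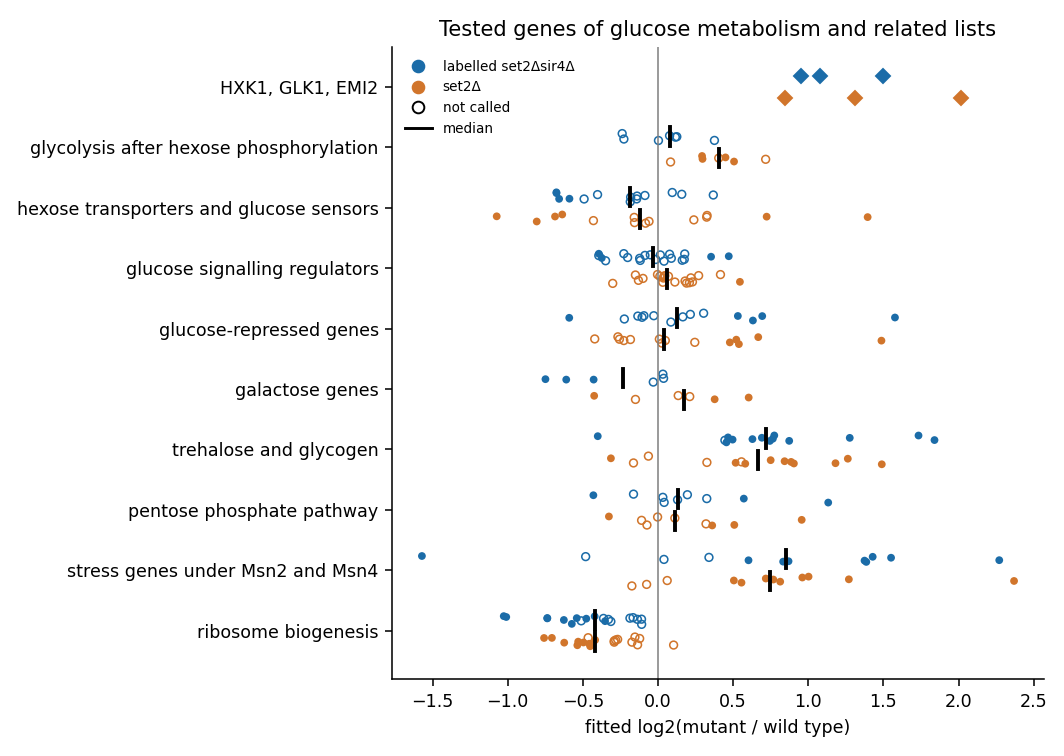
Fitted log2(mutant / wild type) of tested genes in 9 lists, with set2Δsir4Δ in blue above set2Δ in orange, filled where called at an adjusted p under 0.05 and open where not, and list medians as black bars. Diamonds are HXK1, GLK1 and EMI2. The enzymes lie to the right with the genes of trehalose, glycogen and stress, while the glucose-repressed genes centre near 0.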

How the data were processed

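The deposited values were used as the authors' log2 ratios. Scale and direction were tested on the spacing of the values. Taken as base 2 logarithms and turned into linear Cy5 over Cy3 ratios, 100% of the spacings between neighbouring values came out as multiples of the smallest spacing (tolerance 0.02), against at most 8.8% for any other base or direction. On arrays with the mutant in Cy3 this needed the sign turned, so the deposited values run as log2(mutant / wild type) in both orientations. The authors' image processing and normalization are not given in the sources used here. No further normalization was applied. Missing values stayed missing, 406 ORFs had no value on any array, and 1713 were set aside by the filter of 3 values in each group. No array pair held identical values. Gene names came from the R64 table of yeast genes, which matched 5856 ORFs. The array design names no build, so no coordinates are given.

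The fit used R 4.3.3 and limma 3.58.1 (lmFit, eBayes), tested on simulated data. The difference between the mutants was fitted as a coefficient of its own, because limma's contrast step only approximates errors where values are missing. Errors with a fitted ratio are its moderated SE, which pools both groups, over the 3 or 4 arrays that measured the ORF. The members, lists and tests were chosen with earlier results of these data known. From each list, up to 4 genes with the smallest p in either mutant were eligible to be named, plus PGM1, HXT6 and HSP26, named after their values were seen. The glycolysis genes set aside by the filter were also named after their values were seen. Neighbours were named where called or within 2 places, and the 5 ORFs most like GLK1. YFR054C, YCL041C, BAR1, STE2 and MFA2 were read as further checks. Alternatives were scaling, dye terms, array weights, robust fitting, missing-value filters, separate fits, a replicate block, a stricter limit and each array left out. A result on 1 list gene is not reported here.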

Additional observations from a re-analysis of the deposited data

How the results depend on the processing

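Over 208 repeats of the 11 member results, 206 kept direction and side of the threshold. The exceptions were differences between the mutants that were not called either way. The HXK1 difference was 0.00297 with arrays centred and scaled, against -0.23 as reported, and ran from -0.36 to -0.068 with each array left out. The GLK1 difference, -0.52 as reported, ran from -0.79 to -0.24. The EMI2 difference, 0.11 as reported, ran from -0.0418 (without set2Δsir4Δ array 4) to 0.346 with each array left out. The ratios to wild type of HXK1, GLK1 and EMI2 in both mutants, and of YCL042W in set2Δsir4Δ, stayed called in every repeat run. The highest limma adjusted p was 0.031, for EMI2 in set2Δ without set2Δ array 4. With each array left out, GLK1 ran from 1.23 to 1.63 in set2Δsir4Δ and from 1.73 to 2.21 in set2Δ.

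Counts over all ORFs moved more. Calls in set2Δsir4Δ, 1147 as reported, were 1904 with array weights, 2540 with each mutant fitted alone and 623 at a limit of 0.01, and ran from 601 (without set2Δsir4Δ array 1) to 1291 with each array left out. Calls in set2Δ, 1130 as reported, were 713 with no dye term, 1728 with a dye term for each group and 475 at 0.01, and ran from 463 (without set2Δ array 4) to 1323. Calls in the difference, 123 as reported, were 79 with no dye term, 274 with a dye term for each group, 199 with array weights and 61 at 0.01, and ran from 65 (without set2Δsir4Δ array 1) to 179. With limma's contrast step, added after seeing the data, they were 112. Causes were not tested.

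With the array number as a replicate block, the counts were 753, 596 and 61. Deviations of same-numbered arrays correlated at 0.21 and 0.13 for numbers 1 and 3, where both mutants carried the same dye. They correlated at -0.16 and -0.21 for numbers 2 and 4, where the dyes were opposite. The signs follow dye orientation, so these values cannot decide whether same-numbered arrays share more than a number. The block changed no call of a member. HXK2 in set2Δ and its difference could not be computed, YCL042W drops out where complete values are required, and separate fits give no difference.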

Other observations

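Within the lists, 6 genes differed between the mutants in the fit over all ORFs, in which 2.70% of all ORFs were called. They were 2 of 6 tested galactose genes and 2 of 12 stress genes. The rest were 1 of 14 trehalose and glycogen genes and 1 of 9 pentose phosphate genes. No tested gene of the other lists was called in the difference. GAL10 and GAL7, neighbouring genes of galactose use downstream of the galactokinase, were lower in set2Δsir4Δ and higher in set2Δ. GAL10 stood at -0.61 ± 0.14 in set2Δsir4Δ and 0.60 ± 0.14 in set2Δ, a difference of -1.21 ± 0.19 (limma adjusted p = 0.0064). GAL7 stood at -0.43 ± 0.10 in set2Δsir4Δ (n = 3) and 0.38 ± 0.09 in set2Δ, a difference of -0.81 ± 0.14 (limma adjusted p = 0.013). GAL1, the galactokinase, which phosphorylates galactose as the members phosphorylate glucose, was called in neither mutant. The small heat shock gene HSP26 (-1.57 ± 0.17 in set2Δsir4Δ and -0.08 ± 0.17 in set2Δ) and the stress gene DDR48 (-0.48 ± 0.16 and 0.77 ± 0.16) were lower in set2Δsir4Δ than in set2Δ. The trehalase gene NTH2 (0.50 ± 0.10 and -0.16 ± 0.10) and ZWF1 (0.57 ± 0.09 and -0.00 ± 0.09) were higher. The ZWF1 call lay just under the limit and was not made with limma's contrast step. HSP26, DDR48, NTH2 and GAL1 were chosen after their values were seen.

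Some list genes had no place in the fit because too few set2Δ arrays measured them. In set2Δsir4Δ, the glutamate decarboxylase GAD1 averaged 1.26 ± 0.18, the enolase ENO1 0.48 ± 0.15, and the pyruvate kinase CDC19 0.00 ± 0.32 (SD, n = 4 each).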
